A study of Mus musculus with 9 samples.

Results

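The genes described here are 50 components of the Wnt pathway, of 26858 genes counted: 6 Wnt ligands, 2 genes of ligand secretion, 14 receptors and co-receptors, 5 genes of the R-spondin axis, 7 secreted antagonists, 6 feedback regulators and 10 intracellular effectors. They were taken by gene symbol from a list of pathway members, with no threshold on a measured value. Expression was measured by RNA-seq in nephron progenitor cells sorted for eGFP from mouse kidneys at embryonic day E18.5, in 4 libraries from Six2-Qpc heterozygous (*Six2-Qpc*+/-) controls and 5 libraries from Six2-Qpc knockout (*Six2-Qpc*-/-) mutants. *Qpc* is the floxed *Uqcrq* gene, which encodes a subunit of mitochondrial (mt) complex III. All animals carried a bacterial artificial chromosome transgene in which the *Six2* promoter drives a fusion of eGFP and Cre, so the sorted cells of both genotypes expressed Cre, deletion was limited to cells that had used this promoter, and the control cells also carried a deleted *Qpc* allele. The study reported that eGFP-positive cells were a smaller part of mutant than of control kidney cells. It could not fully exclude that differentiating heterozygous cells with low eGFP were sorted as well. The part of such cells in the differences between genotypes was not tested. The labels do not say that the libraries came from separate animals, and p-values therefore measure only the spread between these libraries. Libraries are named by the number in their label: control 71, 72, 73 and 76, and mutant 74, 75, 77, 78 and 79.

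Wnt proteins are lipid-modified ligands that bind frizzled receptors. With the co-receptors LRP5 and LRP6 they stop the breakdown of β-catenin, which then acts with TCF and LEF factors in the nucleus, and through ROR2, RYK and dishevelled proteins they also signal without β-catenin. In the developing kidney, Wnt9b from the ureteric bud acts on SIX2 progenitors, both to keep them dividing and to start their differentiation, and Wnt4 made by the induced progenitors drives their conversion to epithelium. R-spondins strengthen the signal at the receptor, secreted antagonists bind the ligands or the co-receptors, and feedback regulators are made in response to the signal and dampen it.

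Of the 50 genes, 46 had enough reads to be tested. Between genotypes, 8 genes passed an adjusted p-value of 0.05 in the quasi-likelihood test of edgeR with Benjamini-Hochberg adjustment over all 14990 genes tested. *Wls*, *Sfrp1* and *Axin2* were higher in mutant cells, and *Fzd10*, *Rspo1*, *Dkk3*, *Frzb* and *Notum* were lower. These 8 genes were 17.4% of the 46, against 14.8% of all genes tested that passed the same threshold (7.82% higher and 7.02% lower). The median log2 fold change, mutant against control, was −0.01 over the 46 genes and −0.01 over all genes. The median absolute log2 fold change was 0.33 and 0.30. For the 50 genes as a whole, the share of calls and the size of the differences were close to the background. The 8 calls fell on secreted antagonists (3 of 7 tested), feedback regulators (2 of 5), ligand secretion (1 of 2), the R-spondin axis (1 of 5) and receptors (1 of 14), with 0 of 10 intracellular effectors and 0 of 3 ligands.

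**Figure D1:**
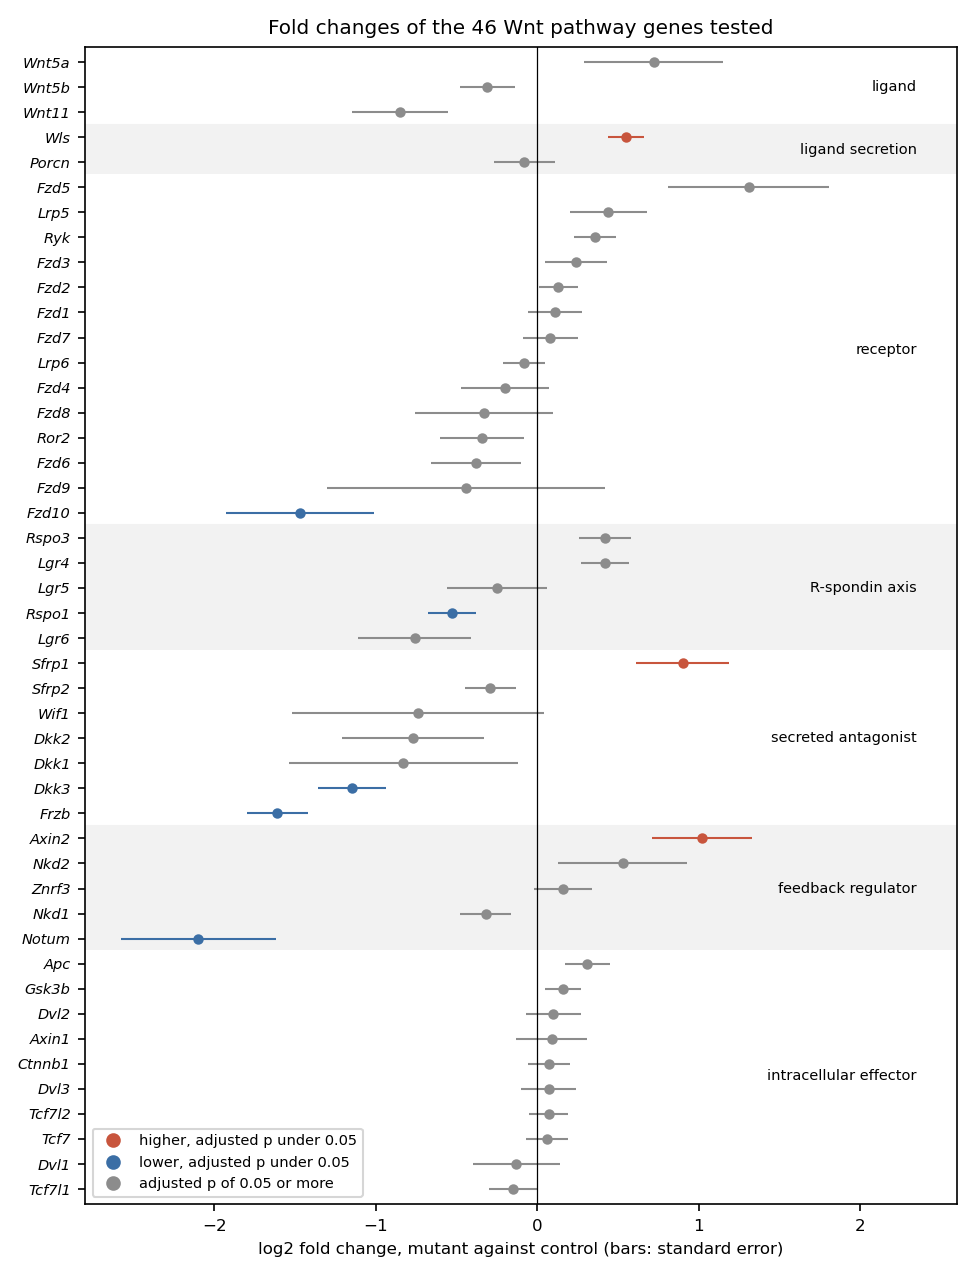
Log2 fold change, mutant against control, of the 46 Wnt pathway genes tested, grouped by role, with bars of 1 standard error and colour for genes past an adjusted p-value of 0.05. The 10 intracellular effectors lie between −0.15 and 0.31, while secreted antagonists span −1.61 to 0.90 and feedback regulators −2.10 to 1.02.

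Upstream sequences are shown for 3 of the 8 genes, those whose 250 bases before the start site are in the RefSeq promoter table (GRCm38.p6) and lie outside annotated exons, so that the sequence in front of a gene that rose or fell can be read beside its values. Windows are chr3:159839400-159839649 for *Wls*, chr4:124986180-124986429 for *Rspo1* and chr11:108920099-108920348 for *Axin2*, all on the plus strand and written 5′ to 3′. Capitals mark GC boxes (GGGCGG, searched on both strands).
Wls: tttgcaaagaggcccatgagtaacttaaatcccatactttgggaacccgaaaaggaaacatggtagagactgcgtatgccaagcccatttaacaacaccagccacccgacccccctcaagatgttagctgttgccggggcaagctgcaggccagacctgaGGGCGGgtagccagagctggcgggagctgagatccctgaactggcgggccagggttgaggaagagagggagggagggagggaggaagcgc
Rspo1: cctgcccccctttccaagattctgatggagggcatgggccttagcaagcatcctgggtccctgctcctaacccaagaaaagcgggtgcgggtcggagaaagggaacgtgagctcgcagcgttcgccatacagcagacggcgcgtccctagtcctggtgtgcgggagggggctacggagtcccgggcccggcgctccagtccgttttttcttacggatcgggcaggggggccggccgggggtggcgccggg
Axin2: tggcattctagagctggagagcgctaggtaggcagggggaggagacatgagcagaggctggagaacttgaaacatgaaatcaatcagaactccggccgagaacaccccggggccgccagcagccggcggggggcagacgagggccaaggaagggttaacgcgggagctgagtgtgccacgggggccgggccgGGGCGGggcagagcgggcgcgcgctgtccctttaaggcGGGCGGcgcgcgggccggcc

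The *Wls* window held 1 GC box, 90 bases before the start site, which the table places 87 bases before the start of the counted gene. The *Axin2* window held 2, 58 and 20 bases before the start site. The *Rspo1* window held none, nor any match to the TCF/LEF core letters CTTTGA, the CCAAT box (CCAAT) or the TATA box (TATAAA), and neither did the other 2 windows hold these 3 motifs. Over the 40 windows matched to 33 of the 50 genes, GGGCGG was present in 67.5%, CTTTGA in 15%, CCAAT in 22.5% and TATAAA in 25%. The shares over all 32851 windows of the table were 32.7%, 13.8%, 33.8% and 12.4%. A match to these letters is not a shown binding site. *Frzb* and *Fzd10* were in the table but their windows overlap annotated exons, and *Dkk3*, *Sfrp1* and *Notum* were not among the matched genes.

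The libraries held 21040536 to 23986458 counted reads, and *Uqcrq* checked the labels: it had 76.8 to 107 CPM (reads per 1000000 reads of the TMM-normalized library) in control and 16.5 to 28.2 CPM in mutant libraries (log2 fold change −2.14, standard error or SE 0.16, edgeR adjusted p = 2.09e-05). The summed CPM of 12 nephron progenitor markers, to which *Six2* contributed most, was 2387 to 2878 in control and 2365 to 2830 in mutant libraries. Fitted levels were higher in mutant cells for 6 of the 12 and lower for 6. Mean *Six2* was 571 CPM in control and 704 in mutant cells (log2 fold change 0.30, edgeR adjusted p = 0.131). Mean *Crym* was 571 and 427 CPM (−0.42, edgeR adjusted p = 0.0698). Of the 12, 1 passed the threshold (8.33%, against 14.8% of all genes tested): *Tmem100* was lower in mutant cells (log2 fold change −0.98, edgeR adjusted p = 0.0124). The 12 ureteric bud markers summed to 63.1 to 97.1 CPM in control and 52.9 to 116 CPM in mutant libraries. Of these, *Ret* and *Wnt9b* did not exceed 0.639 and 0.295 CPM, while *Hoxb7* reached 46.3 and *Krt18* 45.5 CPM, and *Krt19* was lower in mutant cells (log2 fold change −1.51, edgeR adjusted p = 0.0261). The marker sums of other cell types differed, however. The 14 stroma markers summed to 145 to 222 CPM in control and 313 to 872 CPM in mutant cells (exact permutation test, 2-sided, p = 0.0238, 0.0635 after Benjamini-Hochberg adjustment over 8 marker lists), the 7 myeloid markers measured to 2.26 to 10 and 10.5 to 124 CPM (p = 0.0159, adjusted 0.0635), and the 8 endothelium markers to 16.4 to 24.7 and 7.67 to 14.9 CPM (p = 0.00794, the smallest p that 4 against 5 libraries allow, adjusted 0.0635). Of the stroma markers tested, 7 of 13 were higher in mutant cells (53.8%, against 7.82% of all genes tested). Among them were *Ntn1* (log2 fold change 3.85), *Pdgfra* (3.66), *Ogn* (3.36), *Col3a1* (2.44) and *Col1a1* (1.89). *Pdgfrb* (−0.51, edgeR adjusted p = 0.315) and *Tagln* (−0.26, edgeR adjusted p = 0.708) had lower fitted levels and did not pass. *Tbx18* was the stroma marker near 0, at no more than 1.27 CPM. Of the myeloid markers tested, 1 of 6 was called, *Cd68* (1.93), or 16.7% against 7.82% of all genes tested that were called higher. All 6 had higher fitted levels in mutant cells, with log2 fold changes from 1.93 to 4.09. Their unadjusted p in edgeR was under 0.05 for all 6, against 31.4% of all genes tested. *Cx3cr1* did not exceed 0.717 CPM. Most of the endothelium sum in control cells was *Plvap*, which had 17.7 CPM of a mean sum of 21.7 in control and 4.83 of 11.3 in mutant cells and was lower (−1.88), while *Pecam1* was higher (2.42). *Cdh5* and *Tie1* did not exceed 0.724 CPM, and the *Cdh5* level was higher in every mutant library than in any control library. The part of these cells in the differences below was not tested. In sorted bulk samples, fewer cells of a type cannot be told apart from less RNA per cell.

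Levels between genes are compared as CPM per kilobase of gene length. Across the pathway, *Ctnnb1*, which encodes β-catenin, had the highest mean level (246 CPM per kilobase in control and 257 in mutant cells), followed by *Rspo1* (193 and 134) and *Rspo3* (57.9 and 77.7). Next in control cells came *Sfrp2* (52.7), *Tcf7l1* (51.8) and *Wls* (49.5), and in mutant cells *Wls* (72.4) was the highest of these 3 (43.1 for *Sfrp2* and 46.8 for *Tcf7l1*). *Wnt2b*, *Wnt6*, *Wnt7b* and *Rnf43* had at most 18 reads in any library and were not tested. *Fzd5*, *Fzd9*, *Wif1* and *Nkd2* passed the filter on low counts but had at most 0.539 CPM per kilobase in any library.

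**Figure D2:**
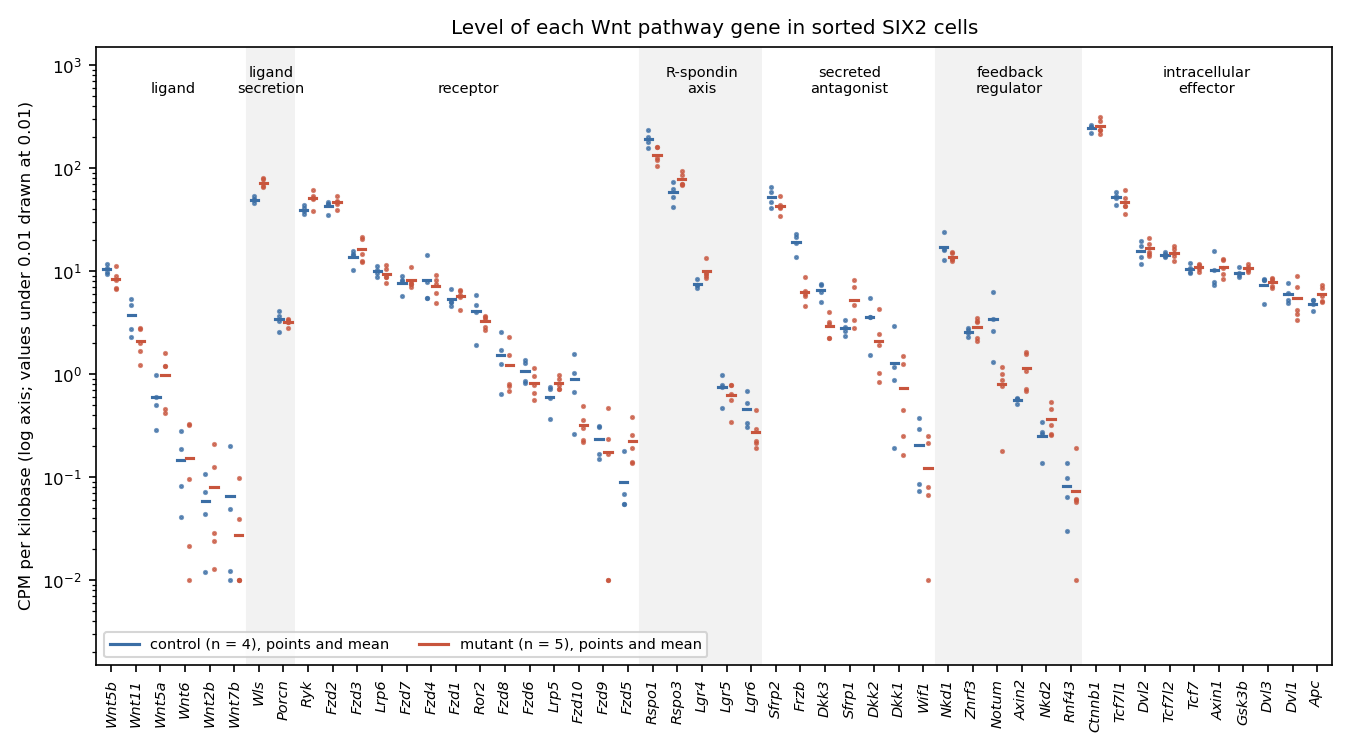
Level of each of the 50 genes in CPM per kilobase on a log axis, by role and in order of mean level, with 1 point per library and lines at the genotype means (control n = 4, mutant n = 5). *Ctnnb1* and *Rspo1* lie above 100, most ligands and the receptors *Fzd5* and *Fzd9* below 1, and the genotypes do not overlap for *Wls*, *Lgr4*, *Frzb*, *Dkk3*, *Notum* and *Axin2*.

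Among ligands, 0 of the 3 tested passed the threshold with edgeR, 1 (*Wnt11*) had an unadjusted p under 0.05, and 1 (*Wnt11*) passed with DESeq2 and 2 (*Wnt11* and *Wnt5b*) with limma-voom. *Wnt5b*, a ligand that often acts without β-catenin, was the most abundant of these 6 ligands per kilobase, with 23.0, 27.7, 25.7 and 22.2 CPM in control 71, 72, 73 and 76, and 26.5, 16.0, 19.3, 16.3 and 21.3 CPM in mutant 74, 75, 77, 78 and 79. Mutant 74 lay within the control range and the other 4 mutant libraries below it (log2 fold change −0.31, SE 0.17, adjusted p = 0.228). Per kilobase, *Wnt5b* ranged from 6.76 to 11.7 over the 9 libraries and did not overlap *Wnt11*, which ranged from 1.21 to 5.34. *Wnt11*, known in the kidney from the ureteric bud tip, had 7.93 to 18.4 CPM in control and 4.18 to 9.61 CPM in mutant cells. The fitted log2 fold change was −0.85 (SE 0.30, adjusted p = 0.0701), and its adjusted p ranged from 0.0108 to 0.232 over the alternatives, with 4 of 16 below 0.05. *Wnt5a*, typical of mesenchyme, had 1.98 to 6.89 CPM in control, 2.91 and 3.20 CPM in mutant 77 and 78, and 8.35, 11.3 and 8.35 CPM in mutant 74, 75 and 79 (log2 fold change 0.72, SE 0.43, adjusted p = 0.278). The 3 mutant libraries with the higher *Wnt5a* levels were also the 3 with the highest stroma marker sums (552, 872 and 421 CPM). Control libraries did not follow this order. Control 72 had the highest *Wnt5a* level of the controls (6.89 CPM) and the lowest stroma sum (145 CPM). Control 76 had the lowest *Wnt5a* level (1.98 CPM) and the highest stroma sum of the controls (222 CPM). The part of stroma cells in the *Wnt5a* levels was not tested.

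Ligand secretion showed 1 change. *Wls*, whose product carries lipid-modified Wnt proteins to the cell surface (ENSMUSG00000028173, chromosome 3, 159839737 to 159935833, mm10), had 164, 164, 150 and 176 CPM in control and 215, 256, 262, 239 and 224 CPM in mutant libraries. All 5 mutant libraries lay above all 4 control libraries. The genotypes did not overlap for 6 of the 46 genes, with *Wls*, *Lgr4* and *Axin2* higher and *Dkk3*, *Frzb* and *Notum* lower (13%, against 15.2% of all genes tested with no overlap in either direction). The mean rose from 163 ± 10.4 CPM (SD, n = 4) to 239 ± 20.1 CPM (SD, n = 5), a log2 fold change of 0.55 (SE 0.11, edgeR adjusted p = 0.00562), and all 16 alternatives called it, with adjusted p from 1.82e-05 to 0.0288. *Porcn*, the acyltransferase that lipidates Wnt ligands, had 6.73 to 10.6 CPM in control and 7.28 to 8.98 CPM in mutant cells (log2 fold change −0.08, SE 0.19, adjusted p = 0.797).

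Of the 10 frizzled receptors, 1 passed the threshold. *Fzd10* (chromosome 5, 128600844 to 128604093) had 0.852, 3.35, 5.14 and 2.19 CPM in control 71, 72, 73 and 76 and 0.980, 0.708, 1.17, 0.738 and 1.59 CPM in the mutant libraries, from 20 to 122 and 15 to 35 reads. Control 71 lay inside the mutant range and the other 3 control libraries above it. The log2 fold change of −1.47 (SE 0.46) had an adjusted p of 0.0469 that ranged from 0.0188 to 0.193 over the alternatives. *Fzd10* was no longer past the threshold with 1 surrogate variable (0.156) or without control 72 (0.109), control 73 (0.193), control 76 (0.0518), mutant 74 (0.0522), mutant 75 (0.0902), mutant 77 (0.075) or mutant 78 (0.0999).

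The frizzled genes that made up most of the receptor message were close in both genotypes. *Fzd2* was the most abundant frizzled gene, with 128, 163, 164 and 171 CPM in control and 176, 145, 173, 164 and 198 CPM in mutant libraries, so that the genotypes overlapped (log2 fold change 0.13, SE 0.12, adjusted p = 0.515). It supplied 52.7 ± 4.01% (SD, n = 4) of the summed CPM per kilobase of the 10 frizzled genes in control and 53.8 ± 2.06% (SD, n = 5) in mutant cells. *Fzd3* supplied 16.8% and 18.8%, *Fzd4* 9.86% and 8.22%, *Fzd7* 9.42% and 9.37%, and *Fzd1* 6.56% and 6.64%. The log2 fold changes of these 4 genes lay between −0.20 and 0.24, with adjusted p-values from 0.417 to 0.802, and those of *Fzd4* and *Fzd7* changed sign under some alternatives. The sum itself was 81.6 ± 12.9 in control and 86.7 ± 7.52 CPM per kilobase in mutant cells. *Fzd10* supplied 1.05 ± 0.623% and 0.363 ± 0.100%.

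The remaining frizzled genes contributed little. *Fzd6* and *Fzd8* had 2.26 to 5.54 and 2.13 to 8.45 CPM over all libraries (log2 fold changes −0.38 and −0.33, adjusted p = 0.385 and 0.643, edgeR). *Fzd9* had 0 to 21 reads per library (log2 fold change −0.44, SE 0.86). *Fzd5* had 9 to 29 reads in control and 19 to 54 in mutant libraries, with a fitted log2 fold change of 1.31 (SE 0.50, adjusted p = 0.0904). Control 71 held 1.24 CPM of *Fzd5* against 0.379 to 0.467 in the other 3 control libraries. Without control 71 the log2 fold change was 1.89 and passed the threshold (edgeR adjusted p = 0.0406). The other fits with 1 library left out did not pass (edgeR adjusted p from 0.0585 to 0.221). In all, 2 of 15 alternatives called *Fzd5*, the other being limma-voom. Its exons share 1233 bp with *Gm38058* on the opposite strand.

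The 4 receptors outside the frizzled family did not pass the threshold. *Ryk*, a receptor with an inactive kinase domain, was close to *Fzd2* per kilobase, with a mean of 39.6 against 42.8 in control and 50.7 against 46.7 in mutant cells, and the libraries of both genes overlapped (35.6 to 60.9 and 35.0 to 53.9). It had 119, 109, 124 and 134 CPM in control and 163, 117, 155, 157 and 187 CPM in mutant libraries. Mutant 75 lay within the control range and the other 4 above it, with a log2 fold change of 0.36 (SE 0.13, adjusted p = 0.0845, 0.0301 to 0.204 over the alternatives, 3 of which called it). *Lrp6*, the more abundant of the LRP co-receptors, had 81.8 to 105 CPM in control and 71.3 to 107 in mutant cells (log2 fold change −0.08, adjusted p = 0.726). *Lrp5* had 3.28 to 6.58 and 6.33 to 8.72 CPM (log2 fold change 0.44, adjusted p = 0.23), and *Ror2*, a receptor for Wnt5a, 7.63 to 23.1 and 10.6 to 14.4 CPM (log2 fold change −0.34, adjusted p = 0.395).

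The R-spondin axis held the most abundant secreted factors of the pathway. *Rspo1*, which encodes a ligand of LGR4, LGR5 and LGR6 (ENSMUSG00000028871, chromosome 4, 124986430 to 125009099), had 370, 432, 289 and 326 CPM in control and 295, 193, 217, 228 and 293 CPM in mutant libraries. Mutant 74 and 79 were slightly above control 73, and the other 3 mutant libraries were below every control library. Its mean changed from 354 ± 61.8 (SD, n = 4) to 245 ± 46.3 CPM (SD, n = 5), a log2 fold change of −0.53 (SE 0.15, edgeR adjusted p = 0.037). The call was kept under the 7 other normalizations, filters and models, and was lost without control 71 (adjusted p = 0.0867), control 72 (0.112), mutant 75 (0.0751), mutant 77 (0.0831) or mutant 78 (0.0819), with a range of 0.0134 to 0.112 over all 16 alternatives.

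*Rspo3*, the other R-spondin gene, went the other way without passing the threshold, with 101 to 176 CPM in control and 165 to 225 CPM in mutant cells (log2 fold change 0.42, SE 0.16, adjusted p = 0.0902). The ratio of *Rspo1* to *Rspo3* per kilobase was 2.74, 4.49, 3.72 and 2.81 in control and 2.32, 1.12, 1.72, 1.46 and 2.26 in mutant libraries, and the genotypes did not overlap for this ratio, which was looked at after the values of both genes were known. In each of the 9 libraries *Rspo1* was the higher of the pair.

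Of the R-spondin receptors, *Lgr4* was the only one above 1 CPM per kilobase. It had 34.8, 42.6, 37.3 and 36.8 CPM in control and 45.5, 47.9, 43.0, 48.5 and 68.1 CPM in mutant libraries. The genotypes did not overlap, by a small margin between mutant 77 and control 72, and mutant 79 stood apart. The log2 fold change was 0.42 (SE 0.15, adjusted p = 0.0733), and it passed the threshold under 3 of 16 alternatives (1 surrogate variable, DESeq2 and limma-voom). *Lgr5* and *Lgr6* had 37 to 110 and 28 to 108 reads per library, with log2 fold changes of −0.25 (adjusted p = 0.626) and −0.76 (adjusted p = 0.154).

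Of the secreted antagonists, 3 of 7 passed the threshold (42.9%, against 14.8% of all genes tested). A lower fitted level in mutant cells was found for 6 of the 7, against 7614 of the 14990 genes tested. Of these 6, *Frzb* and *Dkk3* passed. The median log2 fold change of the 7 was −0.77 and the median absolute 0.83, against −0.01 and 0.30 over all genes. *Sfrp4*, an antagonist gene outside these 7, was higher in mutant cells (log2 fold change 2.51), from at most 0.469 CPM in control libraries. *Frzb*, a secreted frizzled-related protein that binds Wnt ligands (ENSMUSG00000027004, chromosome 2, 80411970 to 80447625), had 72.5, 58.4, 68.0 and 43.4 CPM in control and 27.4, 18.9, 18.2, 14.4 and 20 CPM in mutant libraries. The genotypes were well apart, with control 76 the lowest control and mutant 74 the highest mutant library. The mean fell from 60.6 ± 12.9 (SD, n = 4) to 19.8 ± 4.77 CPM (SD, n = 5), a log2 fold change of −1.61 (SE 0.19, edgeR adjusted p = 0.000521), or 3.06-fold. It had the smallest adjusted p of the 46 genes and was called under all 16 alternatives, with log2 fold changes from −1.80 to −1.45.

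*Dkk3*, a divergent member of the Dickkopf family (ENSMUSG00000030772, chromosome 7, 112116019 to 112159057), had 16.7, 24.5, 25.4 and 21.2 CPM in control and 13.4, 10.7, 7.45, 7.53 and 10.4 CPM in mutant libraries. All mutant libraries lay below control 71, the lowest control. The mean changed from 21.9 ± 3.94 (SD, n = 4) to 9.90 ± 2.50 CPM (SD, n = 5), a log2 fold change of −1.15 (SE 0.21, edgeR adjusted p = 0.0043), and all 16 alternatives called it (−1.39 to −0.96). *Dkk1* and *Dkk2*, which block LRP5 and LRP6, varied widely within each genotype, from 0.464 to 7.13 and 5.70 to 20.4 CPM in control and 0.394 to 3.67 and 3.09 to 15.7 CPM in mutant libraries. Their log2 fold changes of −0.83 (SE 0.71) and −0.77 (SE 0.44) had adjusted p-values of 0.458 and 0.257.

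*Sfrp1*, another secreted frizzled-related protein (ENSMUSG00000031548, chromosome 8, 23411502 to 23449632), was the antagonist that went up. It had 10.2, 14.7, 12.4 and 11.4 CPM in control 71, 72, 73 and 76 and 35.7, 30.6, 14.6, 12.3 and 20.5 CPM in mutant 74, 75, 77, 78 and 79. Mutant 77 and 78 lay within the control range, and mutant 74 and 75 were far above it. Its log2 fold change of 0.90 (SE 0.29) had an adjusted p of 0.0486, close to the threshold. The call was lost with limma-voom (0.117), with upper quartile normalization (0.0514), and without control 71 (0.126), control 72 (0.0679), control 73 (0.111), control 76 (0.0786), mutant 74 (0.0709), mutant 75 (0.102) or mutant 79 (0.0662), with a range of 0.00933 to 0.126. Mutant 74, 75 and 79, in which *Sfrp1* was highest, also had the highest stroma marker sums, and mutant 77 and 78 the lowest of the mutant libraries (313 and 327 CPM). The sums of mutant 77 and 78 still lay above those of all control libraries (145 to 222 CPM). Control 72 had the highest *Sfrp1* level of the controls and the lowest stroma sum. The part of stroma cells in the *Sfrp1* levels was not tested.

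*Sfrp2* was the most abundant antagonist per kilobase in both genotypes, with 130, 94.8, 116 and 81.1 CPM in control and 108, 69.0, 83.9, 82.8 and 87.8 CPM in mutant libraries, which overlapped (log2 fold change −0.29, SE 0.16, adjusted p = 0.227). Beside these genes, the order of the antagonists shifted. Per kilobase, *Frzb* was 5.29 to 9.88 times *Sfrp1* in control and 0.857 to 1.72 times in mutant libraries, a description of genes already known to move in opposite directions. *Wif1*, which binds Wnt ligands, had 0 to 20 reads per library and a log2 fold change of −0.74 (SE 0.78, adjusted p = 0.558).

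**Figure D3:**
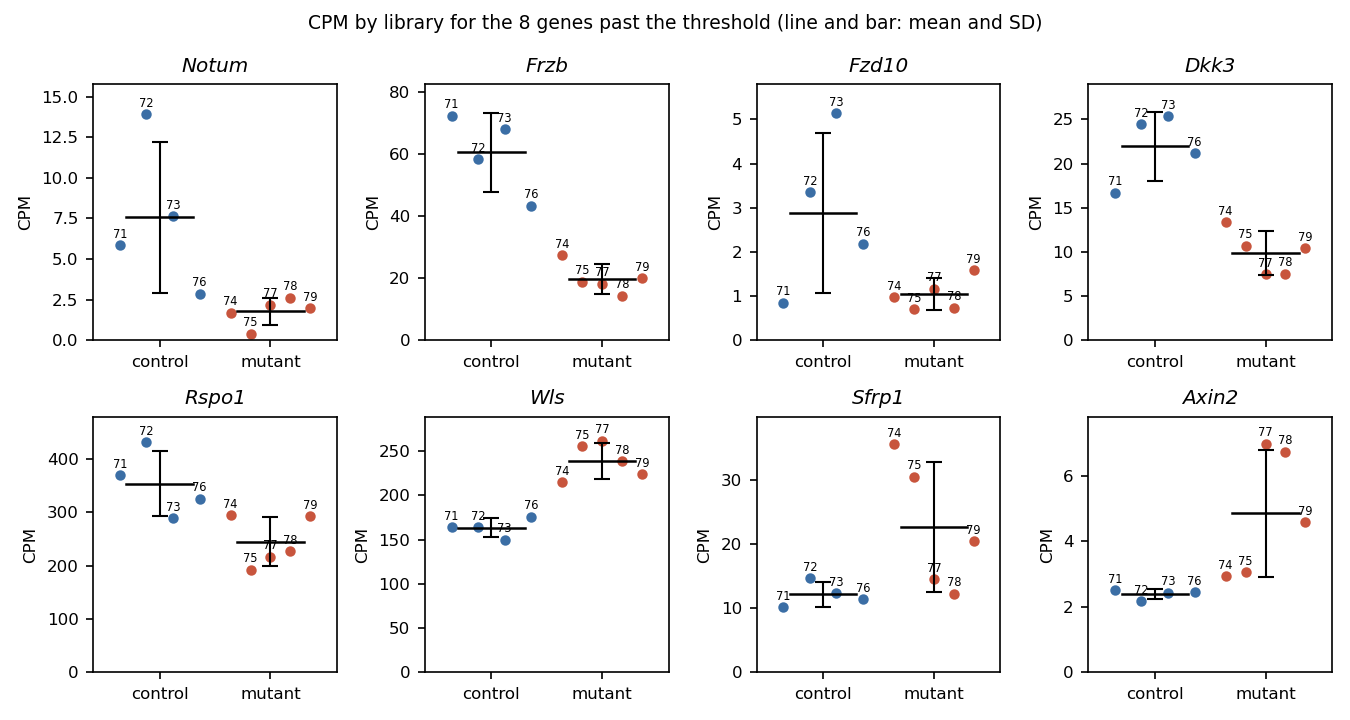
CPM in each library of the 8 genes past the threshold, from the largest fall (*Notum*) to the largest rise (*Axin2*), with numbers that name the libraries, lines at the mean and bars of 1 SD (control n = 4, mutant n = 5). The genotypes are separate for *Frzb*, *Dkk3*, *Wls*, *Notum* and *Axin2* and overlap for *Fzd10*, *Rspo1* and *Sfrp1*.

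Feedback regulators moved in both directions. *Notum*, a deacylase that inactivates Wnt ligands by removing their lipid (ENSMUSG00000042988, chromosome 11, 120653788 to 120661175), had 5.84, 13.9, 7.63 and 2.87 CPM in control and 1.70, 0.398, 2.19, 2.61 and 1.95 CPM in mutant libraries, from 68 to 358 and 9 to 53 reads. Control 72 stood highest, and control 76 was barely above mutant 78, so the genotypes did not overlap but came close. The mean changed from 7.57 ± 4.68 (SD, n = 4) to 1.77 ± 0.836 CPM (SD, n = 5), a log2 fold change of −2.10 (SE 0.48, edgeR adjusted p = 0.013) and the largest of the 46 genes. *Notum* was called under 13 of 15 alternatives, and its adjusted p was 0.0507 without control 72 and 0.0781 with 1 surrogate variable, within a range of 0.000197 to 0.0781. Its exons overlap the antisense genes *Notumos* over 708 bp and *Myadml2os* over 210 bp, and the libraries kept no strand. *Notumos* itself had 3 to 11 reads in control and 1 to 5 in mutant libraries.

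*Axin2*, a scaffold of the β-catenin destruction complex and widely used as a readout of β-catenin signaling (ENSMUSG00000000142, chromosome 11, 108920349 to 108950783), had 2.51, 2.18, 2.44 and 2.45 CPM in control 71, 72, 73 and 76 and 2.94, 3.06, 6.99, 6.74 and 4.58 CPM in mutant 74, 75, 77, 78 and 79. The control libraries were nearly equal, all 5 mutant libraries were higher, and most of the difference lay in mutant 77, 78 and 79. The mean rose from 2.40 ± 0.147 (SD, n = 4) to 4.86 ± 1.94 CPM (SD, n = 5), a log2 fold change of 1.02 (SE 0.31, edgeR adjusted p = 0.0431), from 56 to 59 and 69 to 137 reads. The adjusted p was 0.118 with 1 surrogate variable and rose above 0.05 without control 71 (0.0861), control 72 (0.106), control 73 (0.103), control 76 (0.0663), mutant 77 (0.101), mutant 78 (0.106) or mutant 79 (0.0634), with a range of 0.0122 to 0.118. Mutant 77 and 78, which had the highest *Axin2* levels, also had the highest myeloid marker sums (124 and 52.2 CPM), while mutant 75 combined 3.06 CPM of *Axin2* with a myeloid sum of 36.6 CPM. Nephron progenitor marker sums were also higher in mutant 77, 78 and 79 (2830, 2777 and 2780 CPM) than in mutant 74 and 75 (2365 and 2415 CPM). Control libraries had myeloid sums of 2.26 to 10 CPM and progenitor sums of 2387 to 2878 CPM, with nearly equal *Axin2* levels. The part of myeloid or progenitor cells in the *Axin2* levels was not tested.

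*Axin2* and *Notum* thus went opposite ways within the feedback group. Per kilobase, *Axin2* was 0.0812 to 0.443 times *Notum* in control and 0.896 to 3.98 times in mutant libraries. *Nkd1*, a dishevelled-binding antagonist, was the most abundant of the group, with 69.3, 103, 70.2 and 54.7 CPM in control and 57.0, 65.4, 57.0, 53.6 and 65.6 CPM in mutant libraries. Control 72 was again the highest, the other libraries overlapped, and the log2 fold change was −0.32 (SE 0.16, adjusted p = 0.199). *Nkd2* had 13 to 44 reads per library and a log2 fold change of 0.53 (SE 0.40, adjusted p = 0.395). *Znrf3*, a ubiquitin ligase that removes frizzled receptors and is held back by R-spondins, had 14.5 to 17.5 CPM in control and 13.1 to 22.1 CPM in mutant cells (log2 fold change 0.16, adjusted p = 0.602), and its paralog *Rnf43* had at most 16 reads.

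**Figure D4:**
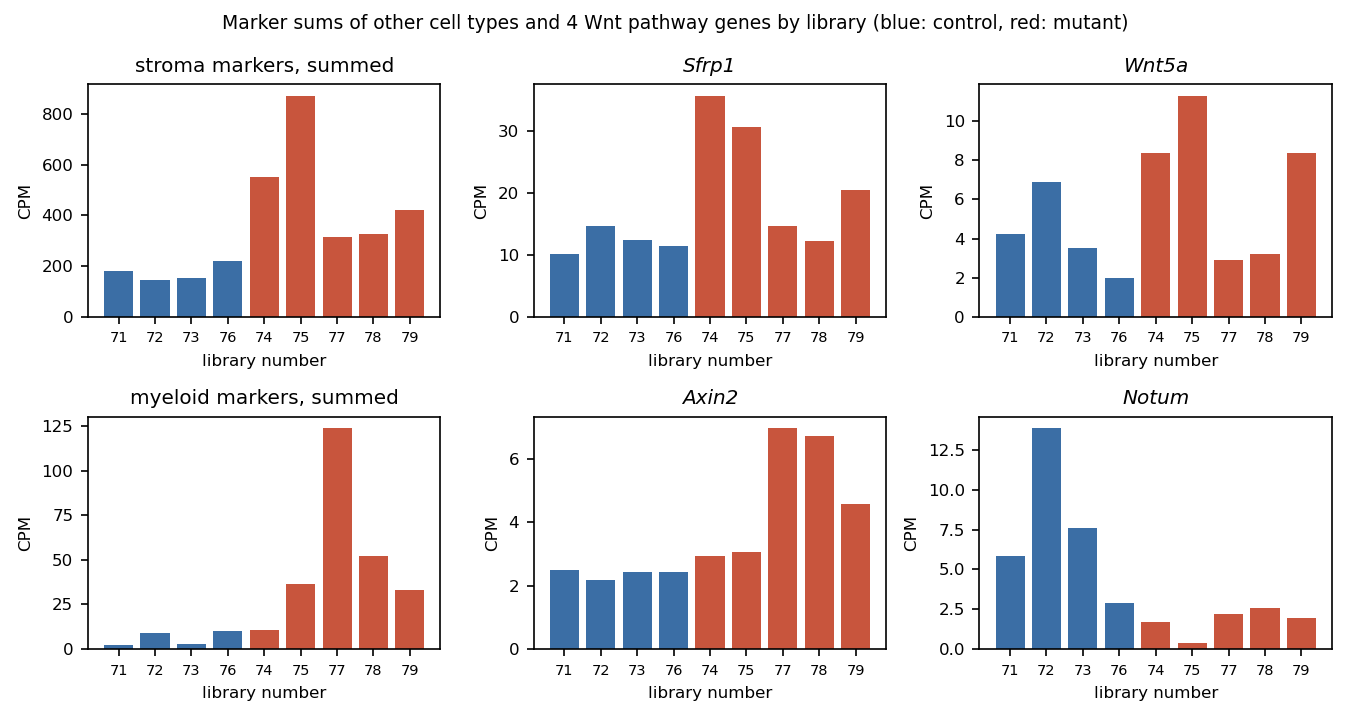
Bars of summed CPM of stroma and myeloid markers beside CPM of *Sfrp1*, *Wnt5a*, *Axin2* and *Notum* in each library (blue, 4 control; red, 5 mutant; axes start at 0). *Sfrp1* and *Wnt5a* are highest in mutant 74, 75 and 79, where stroma sums are 421 CPM or more, and *Axin2* is highest in mutant 77 and 78, where myeloid sums are 52.2 CPM or more. Among control libraries, *Sfrp1* and *Wnt5a* are highest in control 72, where the stroma sum is lowest (145 CPM). *Axin2* is nearly equal in the control libraries, whose myeloid sums run from 2.26 to 10 CPM.

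The 10 intracellular effectors listed here had the smallest median absolute log2 fold change of the 7 roles. Among the other Wnt genes described below, the intracellular components *Csnk1e*, *Pygo1*, *Tle2* and *Cby1* did pass the threshold. In the edgeR test 0 of the 10 passed the threshold, against 14.8% of all genes tested, and 1 (*Apc*) had an unadjusted p under 0.05. With DESeq2 or limma-voom 0 passed, and *Apc* passed with 1 surrogate variable (log2 fold change 0.42, adjusted p = 0.0253). Their log2 fold changes lay between −0.15 and 0.31, with a median absolute value of 0.09 against 0.30 over all genes. *Ctnnb1* had 785, 961, 910 and 905 CPM in control and 1139, 845, 857, 778 and 1039 CPM in mutant libraries. Mutant 78 was the lowest and mutant 74 the highest of all 9, so the genotypes overlapped fully (log2 fold change 0.07, SE 0.13, adjusted p = 0.77). Its exons share 759 bp with *Ulk4* on the opposite strand.

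Among the components of the destruction complex, *Apc* had 50.5 to 64.1 CPM in control and 61.5 to 89.7 CPM in mutant cells, the largest shift of the effectors (log2 fold change 0.31, SE 0.14, adjusted p = 0.142). *Gsk3b*, its kinase, had 72.6 to 90.4 and 81.8 to 96.2 CPM (log2 fold change 0.16, adjusted p = 0.348), and *Axin1*, the constitutive scaffold, 27.7 to 58.5 and 31.4 to 49.7 CPM (0.09, adjusted p = 0.825). The TCF factors were led by *Tcf7l1*, a repressor in the absence of β-catenin, with 132 to 180 CPM in control and 109 to 188 CPM in mutant cells (log2 fold change −0.15, adjusted p = 0.545). *Tcf7l2* and *Tcf7* had log2 fold changes of 0.07 and 0.06 (SEs 0.12 and 0.13). Of the dishevelled genes, which relay the signal from frizzled receptors, *Dvl2* was the most abundant per kilobase (11.6 to 21.1 over the 9 libraries), without overlap with *Dvl3* (4.83 to 8.53) or *Dvl1* (3.36 to 8.98). Their log2 fold changes were 0.10, 0.07 and −0.13 (SEs 0.17, 0.17 and 0.27). *Acadvl* overlaps the *Dvl2* exons over 1151 bp on the opposite strand. How reads in these bases were counted is not known, as the counting program is not given.

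The rest of the pathway was described by a list of 62 other Wnt genes in the table. Of the 46 of these that were tested, 5 were higher and 5 lower (21.7%, against 14.8% of all genes). *Wnt4*, a ligand of the forming renal vesicle, had 55.7 ± 19.3 CPM per kilobase as the control mean (SD, n = 4) and 16.4 ± 7.06 as the mutant mean (SD, n = 5). Its log2 fold change was −1.76 (adjusted p = 0.0058), and the mean level in mutant cells was still above that of *Wnt5b* (8.39 CPM per kilobase). The genotypes overlapped for *Wnt4*, with 113 CPM in control 76 and 116 CPM in mutant 74. *Wnt8b* fell from 1.73 to 3.66 CPM in control to 0 to 0.714 CPM in mutant libraries (log2 fold change −2.30, SE 0.59, adjusted p = 0.0214). The antagonist gene *Sfrp4* rose from 0.379 to 0.469 CPM to 1.43 to 5.71 CPM (log2 fold change 2.51, SE 0.50, adjusted p = 0.00662). Levels of *Wnt8b* in mutant and of *Sfrp4* in control libraries were low, and the size of these fold changes rests on few reads. *Lef1*, a partner of β-catenin whose expression is itself induced by Wnt signals, had 9.66 to 16.9 CPM in control and 6.25 to 15.1 CPM in mutant cells (log2 fold change −0.62, SE 0.28, adjusted p = 0.143).

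The other calls in this list were named after their values were seen. *Tpbg* (log2 fold change 0.60), an inhibitor at the LRP6 receptor, *Csnk1e* (0.38), a casein kinase, *Pygo1* (0.43), a β-catenin coactivator, and *Cd44* (0.72), a β-catenin target in other tissues, were higher. *Tle2* (−0.85), a corepressor, *Ccnd1* (−1.23), which encodes cyclin D1, and *Cby1* (−0.53), an inhibitor of β-catenin, were lower. All had adjusted p-values between 0.00684 and 0.0438. In a list of 7 genes that Wnt signals induce in differentiating progenitors, 3 were lower (42.9%, against 7.02% of all genes tested). These were *Lhx1* (log2 fold change −2.36, edgeR adjusted p = 0.00102), *Wnt4* and *Ccnd1*. *Lef1*, *Fgf8* (−1.11, edgeR adjusted p = 0.054) and *Jag1* (−0.69, edgeR adjusted p = 0.125) did not pass. *Pax8* was level between genotypes (−0.00, edgeR adjusted p = 0.996). In a list of 4 measured progenitor genes that depend on Wnt9b and β-catenin, 1 was lower (*Fam19a5*, −1.10) and 1 higher (*Pla2g7*, 0.61), and *Cited1* and *Itga8* had log2 fold changes of 0.11 and −0.00 with adjusted p-values of 0.716 and 0.991. Parts of these lists were named in the study from these same libraries and are not independent evidence of direction.

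**Figure D5:**
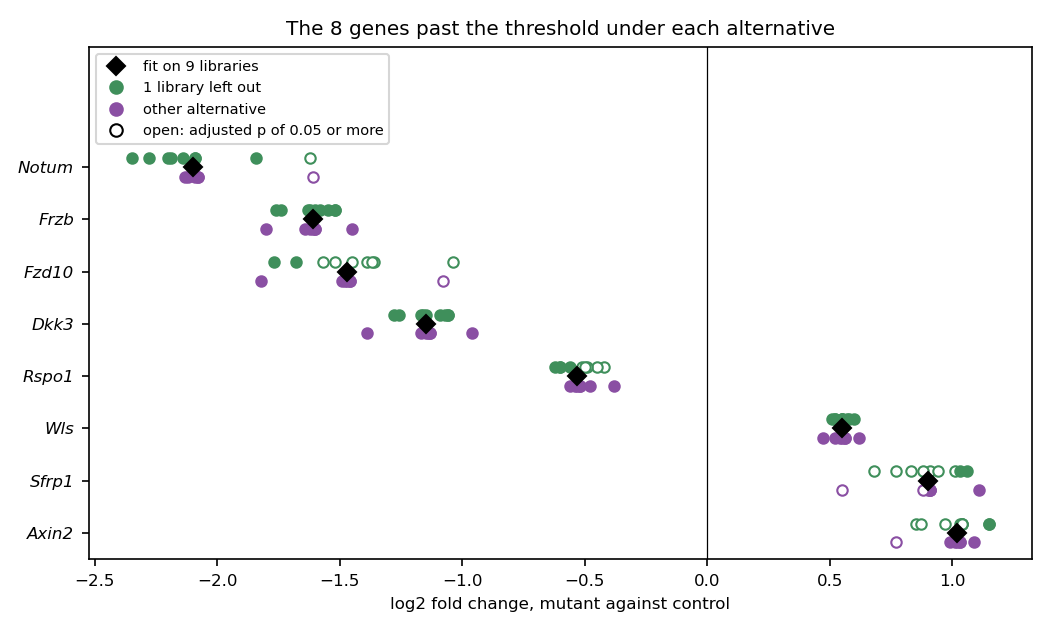
Log2 fold change of the 8 genes past the threshold in the fit on all 9 libraries (diamonds), with each library left out (green) and under the other alternatives (purple), open where the adjusted p-value was 0.05 or more. All points keep their sign, and *Frzb*, *Dkk3* and *Wls* have no open point.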

How the data were processed

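RNA was amplified from sorted cells with a low-input kit, poly(A) selected and sequenced without strand information, with 1 library per sample. The submitters' processing notes name STAR, DESeq2 and build mm10. The program that counted reads is not given in the sources used here. The authors deposited raw read counts per gene, and these were used. The authors' FPKM values and their pooled signal per genotype, log2 fold changes and p-values, which hold their own comparison, were not used. All 26858 genes entered; genes were matched by symbol, as the gene identifier of 1 member (*Fzd10*) differed from the annotation.

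The edgeR package (4.0.16, in R 4.3.3) was applied to the counts. Its filterByExpr function retained 14990 genes, TMM factors scaled the libraries, and 5 mutant libraries were compared with 4 control libraries by the robust quasi-likelihood test, with an adjusted p-value (Benjamini-Hochberg) of 0.05 as threshold. Standard errors (SE) were derived as |log2 fold change| over √F. Marker sums were compared by exact permutation over 126 splits. With 21040536 to 23986458 counts per library, counting error matters most for genes with few reads. Reads are given for some of these genes, and others with low levels are given only in CPM. Alternatives were upper quartile or RLE normalization, keeping any gene with 1 count, at least 10 counts in every library, DESeq2 1.42.0, limma-voom (limma 3.58.1) with quality weights, 1 surrogate variable (sva 3.50.0), 9 fits without 1 library, and unadjusted p-values. The fit was tested on simulated data. The members and lists were chosen with earlier results of these data known. All 50 members are accounted for; values in every library are given for members past the threshold, without overlap, or highest per kilobase in their role. Other genes named are *Uqcrq*, *Wnt4*, *Lef1* and up to 12 listed genes past the threshold with the largest absolute log2 fold change; further ones were named after their values were seen. Figures were drawn with Python 3.11.15 and matplotlib 3.10.9.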

Additional observations from a re-analysis of the deposited data

Results flagged for a closer look

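In 5 of 98 groups of libraries, 1 library stood far from the others of its genotype, and chance at 1 in 20 gives 4.90. *Fzd5* was high in control 71 (1.24 CPM, next 0.467) and *Dvl3* low in the same library (14.2 CPM, next 23.9). *Fzd7* and *Lgr4* were high in mutant 79 (49.7 CPM, next 35.3, and 68.1 CPM, next 48.5). *Wnt4* was low in control 76 (113 CPM, next 262). Without mutant 79 the log2 fold change of *Lgr4* was 0.29.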

How the results depend on the processing

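*Wls*, *Dkk3* and *Frzb* passed the threshold under all 16 alternatives, the other 5 called genes lost it under at least 1, and no called gene changed sign. Of the uncalled genes, 10 passed under at least 1 alternative and 28 under none. The 3 higher and 5 lower calls among the 46 genes became 5 and 3 with 1 surrogate variable, 6 and 10 with limma-voom, 8 higher with unadjusted p, and 1 to 3 higher and 2 to 6 lower with 1 library left out. The other Wnt genes (5 and 5) gave 9 and 8 with DESeq2, 8 and 11 with limma-voom, 3 lower with no filter, 10 and 11 with unadjusted p, and 3 to 5 higher and 2 to 7 lower with 1 library left out. All genes called (2225) were 4868 with limma-voom, 4709 with unadjusted p and 1046 (without control 73) to 3136 (without mutant 74) with 1 library left out. Fitted signs of uncalled genes turned with 1 surrogate variable for *Fzd4* (0.19), *Fzd8* (0.01), *Lrp6* (0.02), *Dvl1* (0.19) and *Tcf7l1* (0.04), and with limma-voom for *Fzd7* (−0.01), *Dvl2* (−0.07), *Axin1* (−0.01) and *Ctnnb1* (−0.04). Leaving out 1 library turned *Porcn* (−0.20 to 0.01), *Fzd4* (−0.36 to 0.19), *Fzd7* (−0.06 to 0.16), *Fzd8* (−0.69 to 0.03), *Dvl1* (−0.38 to 0.01), *Dvl2* (−0.02 to 0.23), *Dvl3* (−0.09 to 0.15), *Axin1* (−0.04 to 0.36) and *Ctnnb1* (−0.02 to 0.12). The cause was not tested. The scaling moved the median of all genes from −0.01 to 0.00 (RLE) and −0.04 (upper quartile). *Notum*, *Fzd5* and genes with fewer reads could not be followed under the filter of 10 counts in every library. No paired analysis was possible because the genotypes share no replicate numbers.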
